A study of Mus musculus with 8 samples.

Results

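Nonsensory epithelial cells of the mouse organ of Corti that carry Epyc, the small leucine-rich proteoglycan epiphycan, and in part Slc26a4, the anion exchanger pendrin, were examined in 8 single-cell RNA-seq libraries. A barcode was taken as such a cell when it held at least 1 UMI, a unique molecular identifier that counts 1 captured transcript, for at least 3 of the 6 markers Padi1, Tnnt2, Epyc, Frzb, Slc26a4 and Nat8l. It also had to hold no UMI of the leukocyte gene Ptprc or of the hair cell gene Pou4f3, and UMIs of fewer than 3 of the genes Vmo1, Crhbp, Lrp2, Dkk2, Rnase1 and Slc26a7. This rule found 354 cells among 6023 barcodes that passed quality filters, which was 5.88%. The cells were thus selected on the UMI counts of these 14 genes, whose levels are given as a description.

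The mice carried the alleles Fgfr3iCre, Atoh1-HA, Chrna9-GFP and Rosa26-CAG-loxP-stop-loxP-tdTomato in all groups, the controls included. Tamoxifen on P12 and P13 switched on Atoh1-HA, an epitope-tagged hair cell transcription factor, in the induced groups. By their labels, these were Coch + Tmx P26, with 3 libraries, and Coch + Tmx P33, with 2 libraries. The uninduced groups were Coch P12, with 2 libraries, and Coch P33, with 1 library. The inducible Cre is expressed from Fgfr3, which marks Deiters' and pillar cells, while the transgene behind it uses the ubiquitous CAG promoter, so recombination in other epithelial cells was not measured here. The lateral wall was removed at dissection, and the remaining tissue was dissociated with enzymes and captured as single cells. By the labels, Coch P33 was the only library of older uninduced cochlea. The paper describes equal numbers of biological replicates in every group, which the labels do not show. Whether the library labelled rep 3 of Coch + Tmx P26, whose Atoh1 is given below, was labelled correctly was not tested. The labels do not say whether replicate libraries came from separate animals, so p-values measure only the spread between these libraries.

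The nonsensory epithelium of the cochlear duct borders the endolymph, the potassium-rich fluid that hair cells need for transduction. Pendrin exchanges chloride for bicarbonate at the apical membrane of such cells in the inner ear, and its loss leads to deafness with an enlarged vestibular aqueduct. The supporting and nonsensory cells are coupled by connexin gap junctions, chiefly those of Gjb2 and Gjb6, and during early postnatal life they secrete the collagens and glycoproteins of the tectorial membrane.

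The promoters of both naming genes and of Col9a1 and Col9a2, collagen genes whose levels differ with age below, are shown because Gata3, Gata2 and Sox10 are higher in these cells than in other barcodes. Each is the RefSeq window of 300 bases around a transcript start on GRCm38.p6, the assembly of the mm10 build used by the authors, and is printed 5′ to 3′ on the strand of the gene. Capitals mark GATAA, a core that GATA factors bind, and AACAAT, a core that SOX factors bind, searched on both strands. Epyc is at chr10:97643818-97644117 on the plus strand, Slc26a4 at chr12:31559935-31560234 on the minus strand, Col9a1 at chr1:24177360-24177659 on the plus strand and Col9a2 at chr4:121039316-121039615 on the plus strand.
Epyc: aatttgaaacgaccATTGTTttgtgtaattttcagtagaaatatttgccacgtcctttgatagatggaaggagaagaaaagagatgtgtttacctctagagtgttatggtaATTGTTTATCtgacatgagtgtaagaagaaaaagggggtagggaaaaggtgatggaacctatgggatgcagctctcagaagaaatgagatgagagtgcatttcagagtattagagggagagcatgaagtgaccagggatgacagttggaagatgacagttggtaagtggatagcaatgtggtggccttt
Slc26a4: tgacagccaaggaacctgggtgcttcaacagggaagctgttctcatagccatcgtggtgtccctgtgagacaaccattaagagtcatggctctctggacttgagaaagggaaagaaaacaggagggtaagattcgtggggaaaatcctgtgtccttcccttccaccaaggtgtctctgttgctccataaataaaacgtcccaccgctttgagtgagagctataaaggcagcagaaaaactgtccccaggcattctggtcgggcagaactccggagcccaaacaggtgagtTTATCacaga
Col9a1: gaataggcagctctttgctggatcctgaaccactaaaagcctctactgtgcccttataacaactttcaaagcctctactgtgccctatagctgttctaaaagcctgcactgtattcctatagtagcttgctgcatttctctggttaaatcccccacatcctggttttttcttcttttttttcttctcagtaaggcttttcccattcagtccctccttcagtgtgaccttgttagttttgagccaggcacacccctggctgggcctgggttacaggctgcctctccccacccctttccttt
Col9a2: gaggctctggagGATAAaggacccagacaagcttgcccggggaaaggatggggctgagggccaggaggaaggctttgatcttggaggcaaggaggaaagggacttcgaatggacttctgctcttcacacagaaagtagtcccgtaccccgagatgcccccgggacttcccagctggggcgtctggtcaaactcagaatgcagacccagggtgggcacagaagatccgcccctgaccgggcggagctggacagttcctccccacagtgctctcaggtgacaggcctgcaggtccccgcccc
The Epyc window held 1 GATAA and 2 AACAAT matches, of which the second AACAAT shares bases with the GATAA. The Slc26a4 and Col9a2 windows each held 1 GATAA match and no AACAAT match, and the Col9a1 window held neither. Among all 32851 mouse promoter windows of this length, 25.4% held GATAA and 10.7% held AACAAT, so a match in 1 window is common, and matches are a description of letters and not of binding.

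Library depth ranged from 3972800 to 13423524 UMIs, and the 354 cells carried 4593367 of 54869212 UMIs in kept barcodes. Their median depth was 10299 UMIs, with a range from 1606 to 61762, against 5973 UMIs in the other kept barcodes. No barcode of these cells was shared between libraries. The library labelled Coch + Tmx P26 rep 3 went against its label, since Atoh1 in its kept barcodes was 12.3 CPM, the gene's UMIs per 1000000 UMIs, beside 175 and 90.5 CPM in Coch + Tmx P26 rep 1 and rep 2, 524 and 415 CPM in the Coch + Tmx P33 libraries, and 17.5 to 23.7 CPM in the 3 uninduced libraries. The shares, the counts of calls and the named genes are given with and without it.

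Epyc was found in 353 of the 354 cells (99.7%), Nat8l in 313 (88.4%), Frzb in 266 (75.1%), Padi1 in 250 (70.6%) and Tnnt2 in 190 (53.7%). Slc26a4 was found in only 72 cells (20.3%). Thinned to 2000 UMIs per cell, which 351 of the cells reached, the shares were 91.5% for Epyc, 49.6% for Nat8l, 45.0% for Frzb, 34.5% for Padi1, 25.9% for Tnnt2 and 10.5% for Slc26a4. In 495 barcodes with Ptprc, which should lack these genes and had a median of 6582 UMIs, the thinned shares were 5.05% for Epyc and between 0.202% and 1.82% for the other 5. Exactly 3 markers were found in 121 cells, 4 in 105, 5 in 107 and all 6 in 21. Just outside the rule stood 248 barcodes with 2 markers, in which Epyc was 684 CPM, the stromal collagen gene Col1a2 752 CPM and the epithelial adhesion gene Epcam 467 CPM. In the 121 cells with 3 markers these were 3366, 164 and 768 CPM.

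Epyc was thus found in nearly all of the cells and Slc26a4 in a minority. The rule used both genes, so their detection does not test the name. The epithelial part of the label held for most of the cells. At least 3 of 22 epithelial genes were found in 323 cells, and the median was 7 genes against 1 in the other barcodes. However, 18 cells held at least 6 of 20 stromal genes and 14 held at least 6 of 12 neuron and glia genes, 30 in all with either. Doublet scoring marked the highest scores of each library, up to a number set beforehand at 0.8% per 1000 kept barcodes. The total of 41 kept barcodes (0.681%) was thus fixed in advance, and 1 of the 354 cells was among them. This count does not show whether the 30 cells were doublets.

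Epyc, which binds collagen in cartilage and other matrices, was the most abundant marker in every library. It stood at 8221 and 13359 CPM in Coch P12, at 6779, 7721 and 6919 CPM in Coch + Tmx P26, at 5044 and 6037 CPM in Coch + Tmx P33 and at 4833 CPM in Coch P33. Both Coch P12 libraries were above all 6 later ones. Tnnt2, the gene of cardiac troponin T, stood at 14.0 and 40.5 CPM in Coch P12, at 484, 382 and 179 CPM in Coch + Tmx P26, at 660 and 306 CPM in Coch + Tmx P33 and at 312 CPM in Coch P33. Here the Coch P12 libraries were the lowest, as they were for Padi1, which encodes a peptidylarginine deiminase and stood at 28.1 and 81.9 CPM in Coch P12 and between 215 and 455 CPM later.

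Slc26a4 ranked the libraries differently. It stood at 71.9 and 52.8 CPM in Coch P12, at 35.2, 36.6 and 27.8 CPM in Coch + Tmx P26, at 145 and 299 CPM in Coch + Tmx P33 and at 92.0 CPM in Coch P33. The 3 P33 libraries were the highest and the 3 Coch + Tmx P26 libraries the lowest. Coch + Tmx P26 rep 1 and rep 2 held only 4 and 7 Slc26a4 UMIs, so their rank below Coch P12 is uncertain. Frzb, a secreted Wnt antagonist, ranged from 264 to 691 CPM, and Nat8l, which makes N-acetylaspartate, from 246 to 811 CPM, with the ages overlapping for both.

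**Figure D1:**
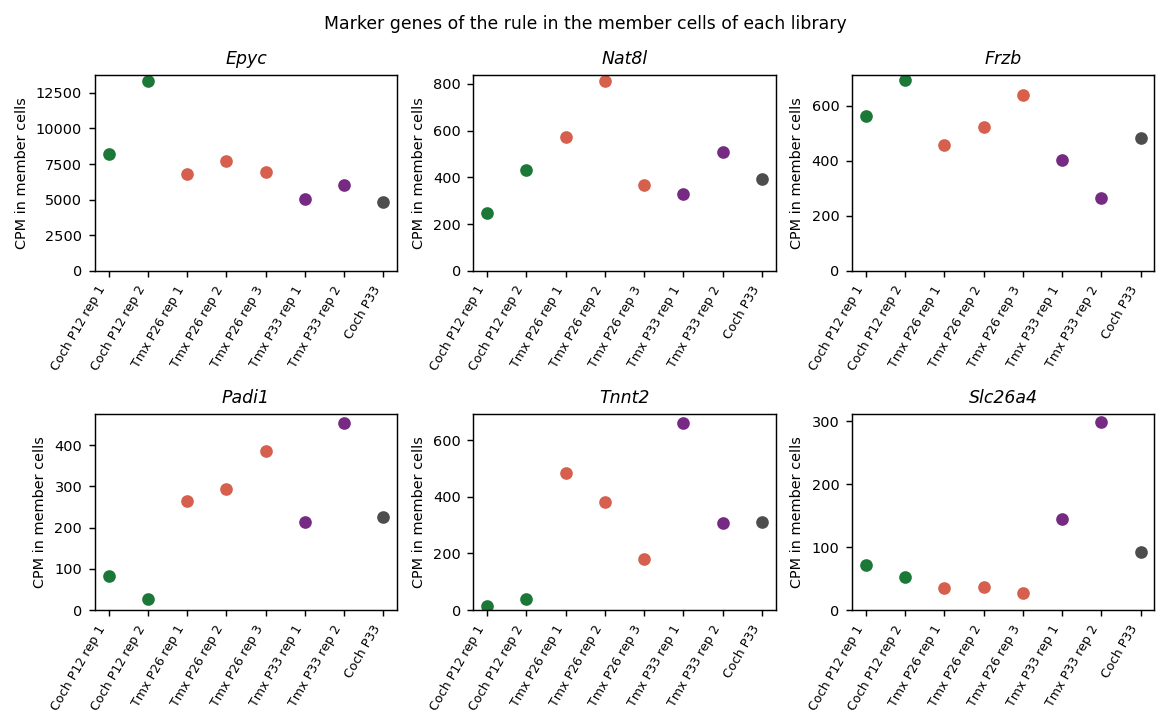
Level of the 6 marker genes in the selected cells of each library, in CPM from summed UMIs, with 1 point per library and colours for the 4 groups. Epyc was highest in the 2 Coch P12 libraries, Padi1 and Tnnt2 were lowest there, and Slc26a4 was highest in the P33 libraries; these genes chose the cells, so the points are a description.

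Beside the markers, the genes with the largest ratio to the other kept barcodes are given here as means over the 8 libraries without a test, since the same cells were used to choose the members. Lum, a keratan sulphate proteoglycan related to Epyc, averaged 1521 CPM ± 624 (SD, n = 8) against 52.4 CPM in other barcodes. It stood at 2007 and 2716 CPM in Coch P12, between 1118 and 1722 CPM in Coch + Tmx P26, at 1018 and 1579 CPM in Coch + Tmx P33 and at 816 CPM in Coch P33. Gata3, a transcription factor required for otic development, averaged 969 CPM ± 216 (SD, n = 8) against 79.2 CPM, and its paralogue Gata2 averaged 203 CPM ± 101 (SD, n = 8) against 14.5 CPM. Sox10, a SOX factor of the otic epithelium that was chosen after its values were seen, averaged 134 CPM ± 48.2 (SD, n = 8) against 38.9 CPM.

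Fbxo2, an F-box protein of the ubiquitin ligase machinery that is abundant in cochlear supporting cells, averaged 14833 CPM ± 2772 (SD, n = 8) against 1407 CPM. The serine protease gene Prss36 averaged 848 CPM ± 260 (SD, n = 8) against 48.9 CPM, and the water channel gene Aqp4 averaged 130 CPM ± 32.2 (SD, n = 8) against 6.37 CPM. Ucma, a matrix Gla protein of cartilage, averaged 902 CPM ± 1666 (SD, n = 8) against 7.08 CPM. Its mean rested on Coch P12 rep 2, at 4981 CPM, while the other 7 libraries lay between 106 and 880 CPM. In 109 other barcodes with both Otol1 and Tspan8, pooled Fbxo2 was 10183 CPM and pooled Gata3 744 CPM. The pooled selected cells had 14444 and 902 CPM, so high levels of these 2 genes were not particular to them. Lum, Prss36 and Aqp4 were 452, 164 and 5.77 CPM in those 109 barcodes, against 1491, 804 and 125 CPM in the pooled selected cells.

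Both main cochlear connexin genes were higher in these cells than in other barcodes. Gjb2 stood at 749 and 670 CPM in Coch P12, at 951, 1016 and 537 CPM in Coch + Tmx P26, at 616 and 834 CPM in Coch + Tmx P33 and at 628 CPM in Coch P33. Gjb6 stood at 256 and 380 CPM in Coch P12 and between 563 and 800 CPM in the 6 later libraries, with no overlap of the ages. Summed over 12 gap junction genes the level was 1014 to 1649 CPM, against 239 to 554 CPM in other barcodes, and 5 of the 12 were higher in the pooled cells. For comparison, 35.6% of the 20294 genes with a UMI were higher in the pooled cells, and 48.0% of those at 20 CPM or more in either set. Among 10 aquaporins the sum was 273 to 487 CPM against 86.6 to 129 CPM.

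The V-type proton ATPase, which acidifies organelles and, in some inner ear cells, endolymph, summed to 3168 to 4004 CPM over 22 subunit genes, against 1987 to 3043 CPM in other barcodes, and 19 of the 22 were higher in the pooled cells. Its subunits that mark acid-secreting cells were at or near 0. Atp6v0a4 had no UMI in 7 libraries and was 1.83 CPM in Coch + Tmx P33 rep 1, and Atp6v1b1 had none in 7 libraries and was 1.76 CPM in Coch P12 rep 2. Respiratory chain complex I genes summed to 10919 to 15401 CPM against 8149 to 11270 CPM, with 33 of 36 higher in the pooled cells. Of 43 anion and acid-base transport genes 14 were higher in the pooled cells and 10 had no UMI.

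Hair cell genes were near 0, with none of 15 higher than in other barcodes and a sum of 0 to 61.0 CPM. Of these genes 4 had no UMI, and none of 14 macrophage or 8 endothelial genes was higher. The rule barred cells with Pou4f3 or Ptprc, so low hair cell and macrophage genes follow in part from the selection. Deiters' and pillar cell genes summed to 753 to 1083 CPM against 232 to 600 CPM, with 8 of 10 higher. Over all genes with a UMI 35.6% were higher in the pooled cells, and 48.0% of those at 20 CPM or more in either set. Stromal genes summed to 70.4 and 89.0 CPM in Coch + Tmx P26 rep 1 and rep 2 and the Coch + Tmx P33 sums were 97.2 and 98.4 CPM. For Coch P12 the sum was 675 and 749 CPM, in the library labelled rep 3 of Coch + Tmx P26 it was 1160 CPM, and in Coch P33 it was 740 CPM. Neuron and glia genes ranged from 182 to 3980 CPM, both of these in Coch P12. That list holds Sox10, which was higher in the selected cells than in other barcodes, so the sums and the counts per cell include a gene of the selected cells. Erythroid genes ranged from 1271 to 29983 CPM, highest in Coch P33 and next in the library labelled rep 3 of Coch + Tmx P26, at 16954 CPM. The part of these genes in the results below was not tested, apart from the counts without the 30 cells that held many stromal, neuron or glia genes.

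**Figure D2:**
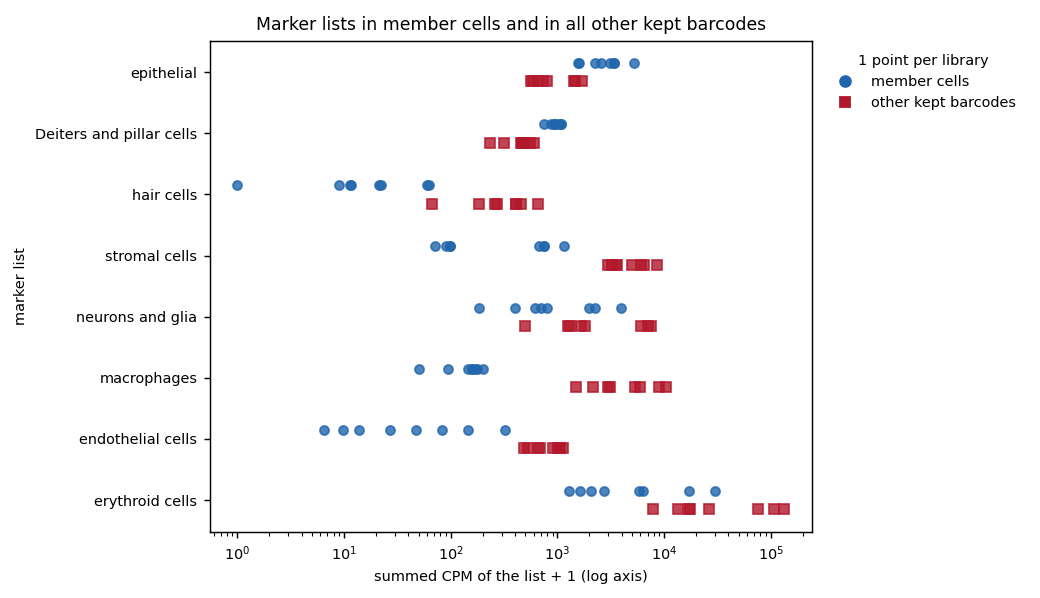
Summed level of marker lists for other cell types in the selected cells of each library, in CPM. Hair cell genes stayed at or below 61.0 CPM, stromal genes ranged from 70.4 to 1160 CPM and erythroid genes from 1271 to 29983 CPM.

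Clustering of the 354 cells gave 10 groups of between 11 and 91 cells, which are described here by their leading genes, without tests, and given no cell type names. Clusters 1 and 2 held 170 cells, nearly all of them from the later libraries. Cluster 1 (91 cells, 89 from later libraries) was led by Car3, a carbonic anhydrase, at 1305 CPM against 28.7 CPM in the other selected cells, and by Ceacam16, a tectorial membrane protein, at 1330 CPM against 134 CPM. Cluster 2 (79 cells, none from Coch P12) was led by Otos, a secreted inner ear protein, at 1212 CPM against 61.2 CPM. It also carried the BMP antagonist Fst at 541 CPM and the ligand Bmp4 at 660 CPM, and it had more Frzb (1349 CPM) and Tnnt2 (744 CPM) than the other clusters. Rnase1, itself among the genes that bar a cell when several occur together, stood at 2421 CPM in cluster 2.

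Cluster 4 (33 cells) came from Coch P12 alone, with 18 cells of rep 1 and 15 of rep 2. It was led by Ucma at 5638 CPM against 245 CPM, Col9a1 at 2171 CPM against 95.1 CPM, Col2a1 at 555 CPM against 37.6 CPM and Igfbp4, a binding protein of insulin-like growth factors, at 1972 CPM against 134 CPM. Epyc reached 19530 CPM there, the highest of the 10 clusters. Cluster 3 (33 cells, 11 from Coch P12) had Fabp7, a fatty acid binding protein of supporting cells and glia, at 697 CPM and the Notch target Hey2 at 146 CPM, and it held no Slc26a4 UMI. Cluster 6 (30 cells, none from Coch P12) had Stmn1 at 1632 CPM, Aqp4 at 317 CPM and Gjb6 at 1547 CPM.

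Cluster 5 (31 cells) came only from Coch + Tmx P26 rep 1 and rep 2, with 2 and 3 cells, and from Coch + Tmx P33, with 11 and 15 cells. None of its cells came from the 3 uninduced libraries or from the library labelled rep 3 of Coch + Tmx P26, which had 111 and 70 selected cells. It carried Krt18 and Krt8, the keratins of simple epithelia, at 1540 and 711 CPM, the protease inhibitor gene Timp1 at 283 CPM against 9.06 CPM and Atoh1 at 285 CPM. Epyc was 1198 CPM in this cluster and Slc26a4 1.96 CPM. Sox2, a transcription factor of sensory progenitors and supporting cells, was 320 CPM and the Notch pathway gene Hey1 420 CPM. Both were the highest of the 10 clusters, with cluster 3 next at 295 and 396 CPM. Fgfr3, which marks Deiters' and pillar cells, was 74.6 CPM, second to 139 CPM in cluster 8. Whether the cells of cluster 5 were Deiters' or pillar cells was not tested.

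Clusters 8, 9 and 10 were small and stood apart in other ways. Cluster 8 (15 cells) had Fam25c at 1334 CPM, Lgr6 at 224 CPM and Otol1, a collagen-like protein of otoconia, at 166 CPM. Tspan8 was 1419 CPM there, the highest of the 10 clusters, with cluster 7 next at 634 CPM. Otol1 and Tspan8 are the genes that chose the 109 other barcodes compared above. Cluster 9 (13 cells) held a median of 9 of 20 stromal genes and 2 of 22 epithelial genes, with Col1a2 at 841 CPM. Cluster 10 (11 cells) held a median of 7 of 12 neuron and glia genes and 1 epithelial gene, with the synaptic gene Snap25 at 3590 CPM, the neurofilament gene Nefl at 1993 CPM and Epyc at 61.7 CPM. The leading genes of clusters 9 and 10 go against an epithelial name for those 24 cells, and the median depth of cluster 10 was 36860 UMIs.

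**Figure D3:**
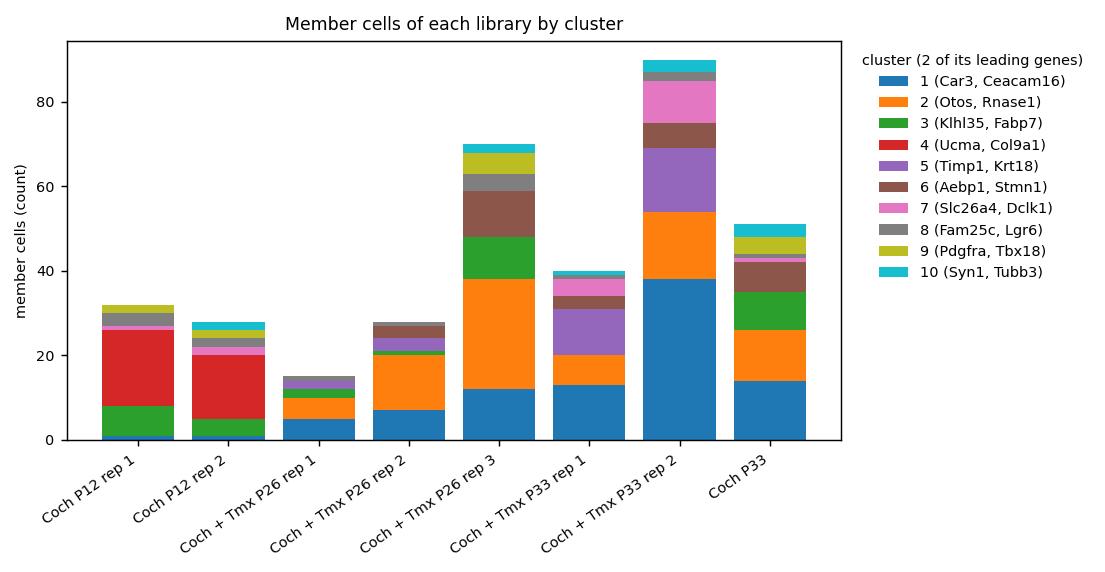
Number of selected cells of each library by cluster, with 1 stacked bar per library, whose height is the library's count of selected cells. Cluster 4 appears only in the 2 Coch P12 libraries, and cluster 5 only in 4 libraries of the induced groups.

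**Figure D4:**
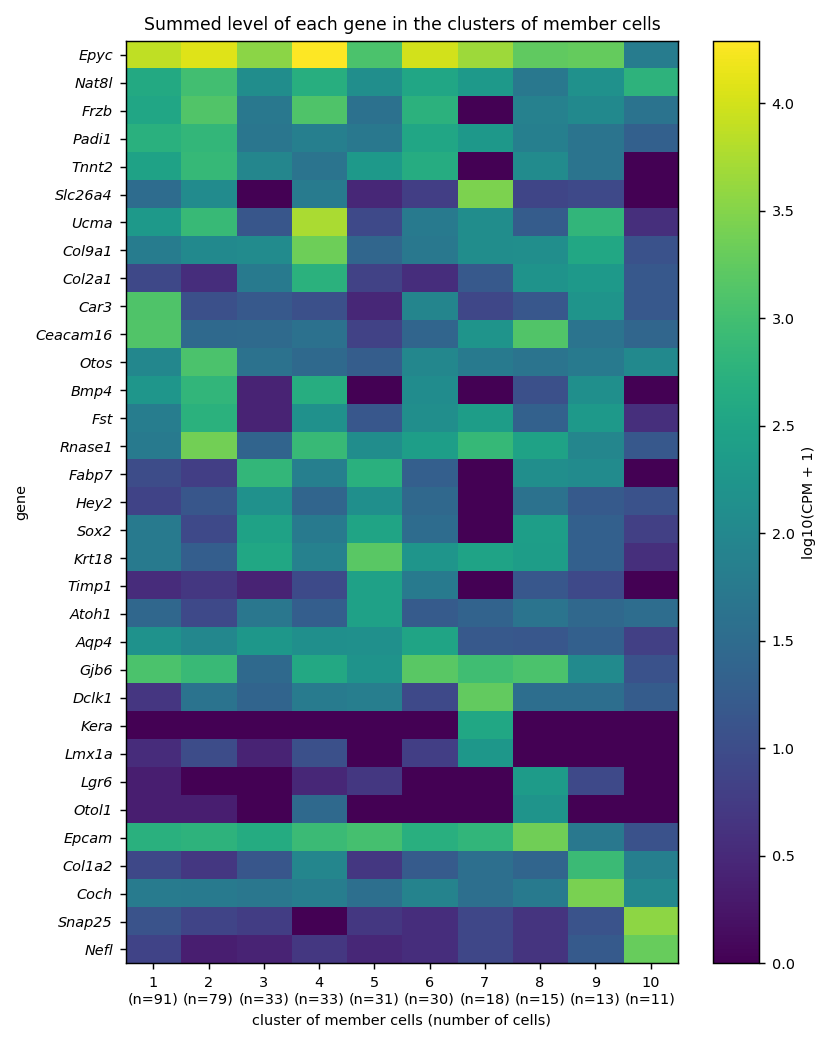
Level of the named genes in the 10 clusters as log10 of CPM plus 1, from UMIs summed over the cells of a cluster. Epyc was high in all but cluster 10, while Slc26a4, Dclk1, Kera and Lmx1a were highest in cluster 7 (18 cells).

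Slc26a4 was concentrated in few cells. Of the 354 cells 282 held no Slc26a4 UMI, 27 held 1, 23 held 2 to 4, and 22 held 5 or more, with a maximum of 59. Cluster 7, with 18 cells, held 375 of the 528 Slc26a4 UMIs (71.0%), which gave 2734 CPM against 34.3 CPM in the other selected cells. The share stayed at 71.0% when the cells were split into 6 clusters, and a cluster of 20 cells held 76.1% when they were split into 13. All 18 cells held Epyc, at 4637 CPM, but none held a UMI of Tnnt2 or Frzb. Across all 72 cells with Slc26a4, 28 also held Tnnt2 and 43 held Frzb, and among the 22 cells with 5 or more UMIs these were 2 and 4.

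The other leading genes of cluster 7 were Dclk1, a microtubule-associated kinase, at 1830 CPM against 31.9 CPM, Lmx1a, an otic transcription factor that marks nonsensory epithelium, at 182 CPM against 3.81 CPM, and Kera, the gene of the keratan sulphate proteoglycan keratocan, at 357 CPM. Bglap2 and Bglap3, near-identical osteocalcin genes whose reads cannot be told apart with confidence, stood at 452 and 904 CPM. Sox2 had no UMI in cluster 7. The 18 cells came from 5 libraries, of which Coch + Tmx P33 gave 4 and 10 cells, Coch P12 gave 1 and 2 and Coch P33 gave 1. None of the 113 selected cells of Coch + Tmx P26 was in it.

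The share of kept barcodes that met the rule was 2.32% and 3.18% in Coch P12, 1.87% and 4.92% in Coch + Tmx P26 rep 1 and rep 2, 11.9% in the library labelled rep 3 of Coch + Tmx P26 and 8.78% in Coch P33, while Coch + Tmx P33 had 7.97% and 12.6%. The 95% Clopper-Pearson intervals, which cover counting error only, reached from 1.05% to 3.07% in the lowest library and from 10.2% to 15.2% in the highest. The groups overlapped. The 6 later libraries averaged 7.99% ± 4.08 (SD, n = 6) and Coch P12 averaged 2.75% ± 0.610 (SD, n = 2), which differ by 5.25 percentage points. This difference did not pass a two-sided exact permutation test (p = 0.214, the smallest possible being 0.0714). Without the library labelled rep 3 of Coch + Tmx P26 the difference was 4.47 points (exact permutation p = 0.286). With the rule applied after thinning to 2000 UMIs it was 3.66 points (exact permutation p = 0.143).

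The 5 libraries labelled as induced averaged 7.84% ± 4.54 (SD, n = 5) and the 3 uninduced ones 4.76% ± 3.51 (SD, n = 3), a difference of 3.08 points (two-sided exact permutation p = 0.357, the smallest possible being 0.0357). Without the library labelled rep 3 of Coch + Tmx P26 it was 2.07 points (exact permutation p = 0.571). Neither difference passed the test, and the difference by age could not have passed 0.05 with 2 Coch P12 libraries. Without Coch + Tmx P26 rep 1 it was 6.47 points, and the ages then did not overlap (exact permutation p = 0.0952, the smallest possible in that design). The share depends on dissection, dissociation and depth as well as on the tissue.

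Comparison of the 6 later libraries with Coch P12, by UMIs summed over the selected cells of each library, addressed the change with age. Collagen genes of types II, IX and XI were among the lower genes after P12, and S100a13, Car3 and B2m were among the higher ones. By edgeR's quasi-likelihood test with Benjamini-Hochberg adjustment, 45 of 8801 genes passed an adjusted p of 0.05 (0.511%), of which 13 were higher (0.148%) and 32 lower (0.364%) in the later libraries. All 45 had CPM that did not overlap between the ages, as did 12.5% of all genes tested, and the uninduced Coch P33 lay on the later side for all 45. One of the 13 was Tnnt2, which the rule used. By their labels 5 of the 6 later libraries were induced, 1 of them the library that went against its label.

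The cells compared differed in makeup. Cluster 4 held 33 of the 60 Coch P12 cells and none of the 294 later cells, and clusters 1, 2, 5 and 6 held 229 later cells and 2 Coch P12 cells. Fewer cells of a type and less RNA per cell cannot be told apart in the summed UMIs, and the part of the makeup in the calls was not tested. Without the library labelled rep 3 of Coch + Tmx P26 there were 59 calls, 40 of them among the 45, and all 18 genes named below by size and level still passed. Without Coch + Tmx P26 rep 1 there were 2 higher and 22 lower calls, without Coch + Tmx P26 rep 2 there were 6 and 24, without Coch + Tmx P33 rep 1 there were 3 and 19, and without Coch + Tmx P33 rep 2 there were 2 and 20. Leaving out Coch P12 rep 1 gave 2 higher and 37 lower calls, and leaving out Coch P12 rep 2 gave 22 and 48. DESeq2 gave 42 higher and 29 lower genes, a different balance of directions.

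Among collagen genes of cartilage and of the tectorial membrane 5 fell. Col2a1, the chief fibrillar collagen of cartilage and a component of the tectorial membrane, stood at 445 and 318 CPM in Coch P12 and at 44.0, 5.23, 9.58, 3.67, 2.14 and 5.75 CPM in the later libraries, a log2 change of -5.79 (SE 0.43, edgeR adjusted p = 0.000196). The 3 chains of collagen IX, which coats type II fibrils, fell as well. Col9a1 stood at 707 and 1620 CPM in Coch P12 and between 17.2 and 178 CPM later, with a log2 change of -4.58 (SE 0.48). Col9a2 stood at 487 and 1085 CPM in Coch P12 and between 70.4 and 128 CPM later, with a change of -2.82 (SE 0.34). Col9a3 stood at 483 and 457 CPM in Coch P12 and between 40.3 and 79.2 CPM later, with a change of -2.90 (SE 0.22). Col11a1, which nucleates the same fibrils, stood at 391 and 216 CPM in Coch P12 and between 11.5 and 70.4 CPM later, with a change of -2.87 (SE 0.47, edgeR adjusted p = 0.0277). The Col11a1 call was lost under 5 of the 17 alternatives described below.

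The ages did not overlap for these 5 collagens. They were 5 of the 13 tested genes of the tectorial and otoconial matrix list, of which 0 were higher, and the list's median log2 change was -2.82 against -0.05 over all genes tested. Summed over the list, the selected cells had 3203 and 4308 CPM in Coch P12 and 479 to 1216 CPM later. The other kept barcodes had 2271 and 2202 CPM in Coch P12 and 318 to 861 CPM later. A fall of this list with age was thus not particular to the selected cells. Col11a2, in the same list, did not pass (log2 change -2.45, SE 0.48, edgeR adjusted p = 0.0638), and without the library labelled rep 3 of Coch + Tmx P26 the list had 6 calls with Col11a2 among them. Among 15 tested basement membrane genes 2 fell and 0 rose, with a median of -1.50. In the other kept barcodes the basement membrane sum was 690 and 684 CPM in Coch P12 and 312 to 650 CPM later. The genes that fell were Npnt, the integrin ligand nephronectin, at 349 and 551 CPM in Coch P12 against 36.7 to 99.5 CPM later (log2 change -2.81, SE 0.31), and Col4a5, at 83.9 and 47.5 CPM against 7.19 to 15.7 CPM (log2 change -2.50, SE 0.37).

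Other named genes that fell encode secreted or membrane proteins. Igfbp4 stood at 851 and 1288 CPM in Coch P12, at 180 CPM in the library labelled rep 3 of Coch + Tmx P26, at 213 CPM in Coch P33 and between 12.8 and 36.6 CPM in the other 4, a log2 change of -3.88 (SE 0.53). Wisp1, a matricellular protein of the CCN family, stood at 304 and 250 CPM in Coch P12 and between 18.2 and 68.0 CPM later (log2 change -2.91, SE 0.31). The serine protease gene Tmprss9 stood at 286 and 274 CPM in Coch P12 and at no more than 10.5 CPM later (log2 change -5.14, SE 0.33). The protease inhibitor gene Spink8 stood at 118 and 148 CPM in Coch P12 and between 0 and 57.6 CPM later (log2 change -3.72, SE 0.59). Without Coch P33 the Spink8 log2 change was -2.51, and its call was lost under 5 of the 17 alternatives described below.

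1500015O10Rik, which encodes a secreted peptide, stood at 685 and 637 CPM in Coch P12 and between 5.23 and 44.0 CPM later (log2 change -5.47, SE 0.42), and 38.2% of its Coch P12 UMIs came from 1 cell. Ano1, a calcium-activated chloride channel and 1 of 18 tested anion and acid-base transport genes, stood at 104 and 79.2 CPM in Coch P12, had no UMI in 4 later libraries and reached 2.87 CPM at most, a log2 change of -6.37 (SE 0.58, edgeR adjusted p = 0.00228). In that list 1 gene fell and 1 rose, with a median log2 change of -0.04. Ucma did not pass the test (log2 change -3.46, SE 0.76, edgeR adjusted p = 0.100), nor did Lum (log2 change -0.94, SE 0.27, edgeR adjusted p = 0.217).

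The gene that rose in the anion and acid-base list was Car3. It averaged 31.4 CPM ± 7.76 (SD, n = 2) in Coch P12 and stood at 229, 178, 328, 737, 244 and 115 CPM in the later libraries, a log2 change of 3.06 (SE 0.52, edgeR adjusted p = 0.0361), and 26.6% of its later UMIs came from 1 cell. S100a13, a calcium-binding protein of the S100 family, rose as well. It stood at 1857 and 2878 CPM in Coch P12, at 4130 CPM in Coch P33 and between 8806 and 10568 CPM in the 5 libraries of the induced groups, a log2 change of 1.76 (SE 0.25, edgeR adjusted p = 0.0118).

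B2m and H2-D1, MHC class I genes, were the 2 members of the interferon response list that rose, out of 15 tested, with 0 that fell and a median log2 change of 1.70. Both calls were lost when any library of Coch + Tmx P33 or Coch P12, or Coch + Tmx P26 rep 1 or rep 2, was left out, with edgeR adjusted p up to 0.202 for B2m and 0.214 for H2-D1. B2m, the light chain of class I molecules, stood at 292 and 260 CPM in Coch P12 and between 482 and 898 CPM later (log2 change 1.37, SE 0.25, edgeR adjusted p = 0.0454). H2-D1, a heavy chain whose reads can be shared with near-identical class I genes, stood at 79.9 and 75.6 CPM in Coch P12 and between 136 and 282 CPM later (log2 change 1.51, SE 0.27). Bst2, an interferon-induced gene, had a log2 change of 3.08 (SE 0.58) and an edgeR adjusted p of 0.0524, and it passed without the library labelled rep 3 of Coch + Tmx P26 (edgeR adjusted p = 0.0472).

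The remaining named genes that rose had less known roles in the ear. Abhd14b, a hydrolase gene, stood at 73.9 and 72.1 CPM in Coch P12 and between 151 and 220 CPM later (log2 change 1.38, SE 0.25). Cyp2d22, a cytochrome P450 gene, stood at 18.0 and 10.6 CPM in Coch P12 and between 50.3 and 141 CPM later (log2 change 2.49, SE 0.44). Gm10263 (log2 change 2.30, SE 0.36) and Gm12840 (log2 change 4.53, SE 0.73) are predicted genes that may share reads with near copies.

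The other lists had 0 calls by edgeR. None of 3 tested gap junction genes passed, although Gjb6 had a log2 change of 1.28 (SE 0.27, edgeR adjusted p = 0.0899) and passed with DESeq2, while Gjb2 had a log2 change of 0.15 (SE 0.26). Over all genes tested, 903 of 8801 (10.3%) had an unadjusted p under 0.05. Such a p was found for 3 of 24 Wnt genes, 3 of 18 BMP and TGF-beta genes, 2 of 14 Notch genes, 2 of 21 otic transcription factor genes and 5 of 21 sodium and potassium transport genes, and DESeq2 called 0 in each of these lists. Of 19 immediate early genes 8 had an unadjusted p under 0.05, with a median log2 change of 0.48. Of 18 epithelial genes 1 had such a p, and DESeq2 called 1. Stromal markers had a median log2 change of -1.48 over 10 genes, and neuron and glia markers one of -0.71 over 12 genes, with 4 and 5 genes at an unadjusted p under 0.05. Without the library labelled rep 3 of Coch + Tmx P26 the stromal genes Col1a2 and Otor passed as lower and the macrophage gene Cd74 as higher. Without the 30 cells that held many of those markers, the test called 164 genes, including all 45.

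**Figure D5:**
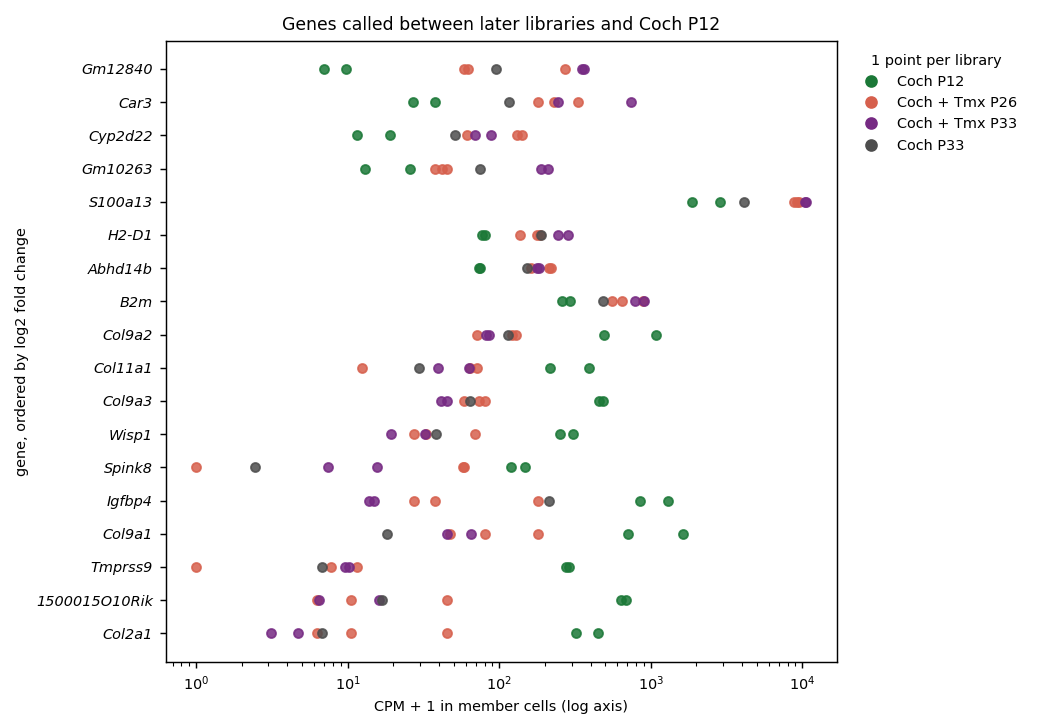
Level of the 18 genes named by size and level in the selected cells of each library, as CPM plus 1 on a log axis, with 1 point per library. The 10 genes that fell and the 8 that rose have Coch P12 points apart from all 6 later points, and Coch P33 lies with the later libraries.

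Comparison of Coch + Tmx P33 with Coch + Tmx P26 addressed the change between the ages of the induced groups. Only 2 of 8801 genes passed edgeR's test (0.0227%), both higher at P33 and both with CPM that did not overlap between the groups, as for 22.8% of all genes tested. Dclk1 stood at 17.6, 10.5 and 23.0 CPM in Coch + Tmx P26 and at 143 and 171 CPM in Coch + Tmx P33 (log2 change 2.94, SE 0.36, edgeR adjusted p = 0.0321). In uninduced libraries it stood at 102 and 80.9 CPM in Coch P12 and at 43.1 CPM in Coch P33. Of the 28 Dclk1 UMIs in Coch + Tmx P26, 16 (57.1%) came from 1 cell, against 20.2% in 1 cell in Coch + Tmx P33. The values of Coch + Tmx P26 rep 1 and rep 2 lay below the level of 3 UMIs, 26.4 and 15.7 CPM. Dclk1 was a leading gene of cluster 7, to which Coch + Tmx P33 gave 14 of 130 cells and Coch + Tmx P26 none of 113, as described for Slc26a4.

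Grp, the gene of gastrin-releasing peptide, stood at 0, 0 and 1.92 CPM in Coch + Tmx P26 and at 71.5 and 77.0 CPM in Coch + Tmx P33 (log2 change 5.41, SE 0.62, edgeR adjusted p = 0.0315), and is named because it was 1 of only 2 calls. Its P33 UMIs came from 8 of 130 cells, with 45.0% of them in 1 cell. At an unadjusted p under 0.05 there were 542 genes, and DESeq2 called 14 genes, both of these among them. Without the library labelled rep 3 of Coch + Tmx P26 edgeR made 0 calls, with 594 genes at an unadjusted p under 0.05. There were also 0 calls without Coch + Tmx P26 rep 2 and without Coch + Tmx P33 rep 1 or rep 2, with 514, 202 and 322 genes at an unadjusted p under 0.05, and without Coch + Tmx P26 rep 1 the test called 1 other gene. There were 7 calls without Coch P12 rep 1 and 9 without Coch P12 rep 2.

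At P33 the 2 induced libraries were set beside the single Coch P33 library, which allows no test. Of 8801 genes, 124 (1.41%) were at least 2-fold higher and 323 (3.67%) at least 2-fold lower in each induced library with 95% exact Poisson intervals, which cover counting error only, apart from that of Coch P33. Genes of cluster 5 were among the higher ones. Krt18 stood at 1073 and 317 CPM against 67.6 CPM and Krt8 at 508 and 211 CPM against 47.4 CPM. Fabp7, which was 697 CPM in cluster 3 and 522 CPM in cluster 5, stood at 308 and 88.8 CPM against 17.2 CPM. Timp1 stood at 218 CPM (interval 181 to 261) and 54.6 CPM (40.6 to 71.8) against 1.44 CPM (0.0364 to 8.01), the last from 1 UMI.

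Atoh1, the induced gene, stood at 110 and 121 CPM in the selected cells of Coch + Tmx P33 against 27.3 CPM in Coch P33, with a UMI in 33 of 130 and in 11 of 51 cells. It stood at 57.9 and 15.8 CPM in the selected cells of Coch P12, so both Coch + Tmx P33 libraries exceeded all uninduced ones. In the selected cells of Coch + Tmx P26 it stood at 17.6, 10.5 and 17.2 CPM. The first 2 of these, in rep 1 and rep 2, lay below the level of 3 UMIs, 26.4 and 15.7 CPM, and could not be resolved. S100a6 stood at 2154 and 1942 CPM against 94.9 CPM. Among the lower genes were the hemoglobin gene Hba-a1, at 339 and 478 CPM against 12640 CPM, the endothelial gene Emcn, at 1.83 and 8.56 CPM against 131 CPM, the otospiralin gene Otos, at 1.83 and 31.0 CPM against 292 CPM, and the stromal gene Otor, at 5.50 and 10.7 CPM against 103 CPM. Erythroid and stromal sums were also higher in Coch P33, as given above, and their part in these differences was not tested.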

How the data were processed

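Dissociated organ of Corti was captured in 8 libraries with the 10x Chromium 3′ v2 kit. The authors aligned reads to mm10 with Cell Ranger, whose version is not given in the sources used here, and deposited raw UMI counts per gene and barcode for 27998 genes. Barcodes were kept here at 500 or more detected genes and under 25% mitochondrial UMIs, which left 6023 of 8061. Of these, 46 held 3 or more markers but also 3 or more barring genes, 6 held markers and Ptprc and 7 held markers and Pou4f3. The cells and the gene lists were chosen with earlier results of these data known.

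Counts of the selected cells were summed per library and tested with edgeR 4.0.16 (glmQLFit, TMM, filterByExpr, all 4 groups in 1 fit, Benjamini-Hochberg over 8801 genes, adjusted p under 0.05) in R 4.3.3, with DESeq2 1.42.0 as an alternative. On simulated counts for the comparison of later libraries with Coch P12 (8801 genes, 200 changed), edgeR recovered 67% of changes of log2 size 2 and 90% of size 3, and 9.77% of its calls were unchanged genes. For each comparison the text names up to 10 genes per direction with the largest change among calls with a mean of at least 50 CPM and no overlap of groups, listed genes that passed or describe their list, the genes the rule used, and the 20 genes with the largest ratio to other barcodes at 100 CPM or more. Grp and the genes at P33 against Coch P33 fell outside this rule and were chosen after their values were seen. Shares were compared by exact permutation of libraries with scipy 1.17.1. Clusters used scanpy 1.11.5 (1500 variable genes, 15 components, resolution 0.6). Doublets were scored per library with Scrublet, and marked barcodes were left in and removed in an alternative. Replicate numbers are shared between groups but did not pair the libraries, since correlations of same-numbered deviations ranged from -0.22 to 0.13. Promoters came from RefSeq tables. The thinned values used 2000 UMIs per cell.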

Additional observations from a re-analysis of the deposited data

Results flagged for a closer look

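Among 28 quantities over the 6 later libraries, 4 had a highest or lowest library far from its neighbour relative to the range of the 6, by Dixon's criterion at 95%, which chance meets in about 5% of groups. Col2a1 was highest in Coch + Tmx P26 rep 1, at 44.0 CPM, with the next library at 9.58 CPM. 1500015O10Rik was also highest there, at 44.0 CPM, with the next at 15.8 CPM. That library held 15 selected cells, the fewest of the 8. S100a13 was lowest in Coch P33, the only later library without tamoxifen by its label, at 4130 CPM, with the next at 8806 CPM. Car3 was highest in Coch + Tmx P33 rep 1, at 737 CPM, with the next at 328 CPM.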

How the results depend on the processing

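For the later libraries against Coch P12, the 45 calls became 71 with DESeq2 (42 higher and 29 lower, against 13 and 32, with 29 shared), 307 with no filter on low counts, 88 with at least 4 markers per cell, 24 with at least 20 cells per library and 164 without barcodes holding 6 or more neuron, glia or stromal markers, an alternative chosen after seeing the data. Leaving out single libraries gave 22 to 70 calls, where a lone Coch P12 library was assumed to vary like the other groups. For Coch + Tmx P33 against Coch + Tmx P26, the 2 calls became 14 with DESeq2, 171 with no filter, 5 with at least 4 markers, 5 with mitochondrial UMIs under 10%, 1 with at least 20 cells per library and 14 without the barcodes with other markers, and 0 to 9 without single libraries. Fitting the replicate number as a block, although the numbers did not pair the libraries, left out Coch P33, which has no second library, and gave 77 calls and 0 calls (519 genes at an unadjusted p under 0.05), against 47 and 2 without Coch P33 alone. No paired analysis was possible for the shares because their exact test has no block. The other causes of these shifts were not tested.

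Of 391 alternative values for 23 named genes, 308 kept their direction and their call, 83 kept the direction and lost the call, and 0 reversed. Requiring at least 20 cells per library dropped only Coch + Tmx P26 rep 1, so that fit enters the 17 alternatives per gene under 2 names. Col2a1, 1500015O10Rik, Tmprss9, Col9a1, Col9a2, Col9a3, Wisp1 and Npnt passed under all 17 alternatives. B2m and H2-D1 each lost the call under 8, with adjusted p up to 0.202 and 0.214. Car3 lost it under 5, S100a13 under 4, and Dclk1 and Grp under 8 each. Col11a1, Col4a5, Spink8 and Gm10263 lost it under 5 each, Gm12840 under 6, and Abhd14b and Cyp2d22 under 7 each. Ano1 and Igfbp4 lost it under 1 each. Differences in share were 3.66 to 6.47 points by age (exact permutation p 0.0952 to 0.571) and 1.86 to 5.09 points by induction (exact permutation p 0.171 to 0.667) over 13 alternatives. By age none of these designs could reach 0.05, nor could those by induction that left out a library, so they say nothing of stability. With 15 to 90 cells per library, genes near the floor of 3 counts (2.87 to 26.4 CPM) could not be resolved.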

Other observations

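The selected cells expressed several genes of retinoid, tight junction and purinergic pathways that entered no comparison above. The values are descriptive, and these genes were chosen after their values were seen. Aldh1a1, which makes retinoic acid, averaged 290 CPM ± 126 (SD, n = 8) against 40.2 CPM in other kept barcodes, with 355 and 556 CPM in Coch P12 and between 160 and 326 CPM later. Cldn9, a tight junction gene whose loss causes deafness in mice, ranged from 308 CPM in Coch P33 to 1236 CPM in Coch + Tmx P33 rep 1. P2rx2, an ATP-gated cation channel of the cochlear epithelium, was 69.0 CPM in Coch P33, 80.5 CPM in the library labelled rep 3 of Coch + Tmx P26 and between 131 and 337 CPM in the other 6 libraries.

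Kcnj16, an inwardly rectifying potassium channel, averaged 327 CPM ± 147 (SD, n = 8) against 41.6 CPM, and the sodium pump subunit gene Atp1b1 averaged 1392 CPM ± 229 (SD, n = 8) against 354 CPM. Sfrp1, a secreted Wnt antagonist like Frzb, averaged 319 CPM ± 175 (SD, n = 8) against 31.2 CPM. Slc12a2, a chloride cotransporter gene, was 51.7 CPM ± 21.6 (SD, n = 8) against 37.9 CPM.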
